A study of Saccharomyces cerevisiae with 18 samples.

Results

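Cells of the haploid Saccharomyces cerevisiae laboratory strain BY4741 (mating type a) that lacked RXT3 were compared with cells of the same strain that lacked PHO23, across the transcriptome. The 2 deletion strains account for 6 of the 18 libraries of the series, 3 per strain, and the deposited table gives 1 pooled value per strain and open reading frame (ORF). An ORF was compared when it had a value in all 6 strains, which held for 4956 of the 6650 named ORFs. The other 4 strains carried, at RXT3 or at PHO23, the allele of strain T73 or of strain CLIB215 in the BY4741 background. The study asks about natural diversity in how yeast ferments pentoses, and all 6 strains were grown to log phase on xylulose, a pentose sugar, in YP medium from a starting OD of 0.1. Unedited BY4741 is not analysed here, so a difference between the deletions does not say which of the strains departs from the wild type.

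Rxt3 and Pho23 are subunits of Rpd3L, the large form of the Rpd3 histone deacetylase complex. Rpd3L is brought to promoters by DNA-binding proteins such as Ume6 and Ash1, removes acetyl groups from histone tails, and is known for repressing meiotic, stress and metabolic genes. Pho23 is a PHD finger protein that binds methylated histone H3, and the complex is also known to act in the activation of stress genes.

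The values are logarithms centred for each ORF, so they show how the 6 columns compare and not how strongly a gene is expressed. They are read here as log2 values, although the base is not written in the table. A difference is always the delRXT3 column minus the delPHO23 column, and 1 unit is 2-fold if the base is 2. No spread between libraries can be given, so no difference below has a replicate check or a test. Depth per library is unknown. Columns are named by the sample titles. For 3 groups the genotype entry names a different strain from the title. Samples titled delPHO23 carry RXT3::CLIB215(RXT3) in that genotype field, those titled T73RXT3 carry delta(PHO23), and those titled CLIB215RXT3 carry RXT3::T73(RXT3). For delRXT3 both fields name the same deletion. Values for the 3 RXT3 columns and then the 3 PHO23 columns are given in the order deletion, T73 allele, CLIB215 allele.

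The edited genes were examined first. PHO23 (YNL097C, chromosome XIV, 441366 to 442358, minus strand, build R64) had no value in the delPHO23 column and values of 0.12, −0.07 and −0.61 in the RXT3 columns. The −0.07 belongs to the T73RXT3 column, for which the genotype field names a PHO23 deletion. The dubious ORF YNL097W-A, whose systematic name places it beside PHO23 on the opposite strand, stood at −1.77, −1.11 and −1.51 in the RXT3 columns and at −2.97, 4.61 and 4.16 in the PHO23 columns. It was thus high only where the titles give an exchanged PHO23 allele, and low in the deletion columns and the RXT3 allele columns alike. RXT3 (YDL076C, chromosome IV, 320668 to 321552, minus strand) had values of −0.05, 0.11 and 0.23 in the RXT3 columns and of −0.15, 0.14 and −0.36 in the PHO23 columns. The loss of RXT3 was therefore not visible at the gene itself in the column labelled delRXT3. The genes that define mating type a, such as MFA1 and STE2, had values in all columns, and none of the 4 alpha-specific genes had a value in all 6. Of these, SAG1 (alpha-agglutinin) had a value in 5 columns, STE3 (the a-factor receptor) in 2, and the alpha-factor genes MF(ALPHA)1 and MF(ALPHA)2 in 1 column each. Of the marker loci deleted in BY4741, LEU2 and MET17 had no value, and URA3 had 1, in T73PHO23 (−1.19). HIS3 had a value in all 6 columns, −0.14, −0.64 and −0.13 in the RXT3 columns and 0.49, 0.33 and 0.08 in the PHO23 columns. The source of the HIS3 and URA3 values was not tested.

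One stretch of chromosome IV beside RXT3 stood apart and touches several results below. From BRE1 to SIT4 (chromosome IV, 324047 to 370706, 46.7 kb) 24 ORFs were complete, and their median difference between the deletions was 1.01. Of these, 22 were above 0 and 12 were higher by at least 1 unit. The median was 0.68 in delRXT3, 0.61 in T73RXT3 and 0.63 in CLIB215RXT3, against −0.37, −0.25 and −0.34 in the PHO23 columns. YET3, for example, stood at 0.78, 0.79 and 0.83 in the RXT3 columns and at −0.29, −0.25 and −0.28 in the PHO23 columns. All 3 RXT3 columns lay above all 3 PHO23 columns for 18 of the 24 ORFs, which held for 7.31% of the 4858 annotated complete ORFs. The stretch was alike in the deletion and the allele columns of RXT3, including the column titled T73RXT3, for which the genotype field names a PHO23 deletion. The bounds were chosen after the values had been seen. Medians over 15 consecutive ORFs reached 1.05 where the window touched this stretch and ran from −0.57 to 0.55 in the 4596 windows elsewhere. RXT3 itself and RPL31A, which lie between the stretch and VAM6, differed by 0.10 and −0.36. The 12 ORFs higher by at least 1 unit are BRE1, AHK1, YET3, BDF2, COX9, PEX19, RAD59, USO1, MBP1, PSA1, PBP4 and STP4. SYO1 was lower by at least 1 unit, at −1.23, and KNH1 was the other ORF below 0, at −0.79.

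**Figure D1:**
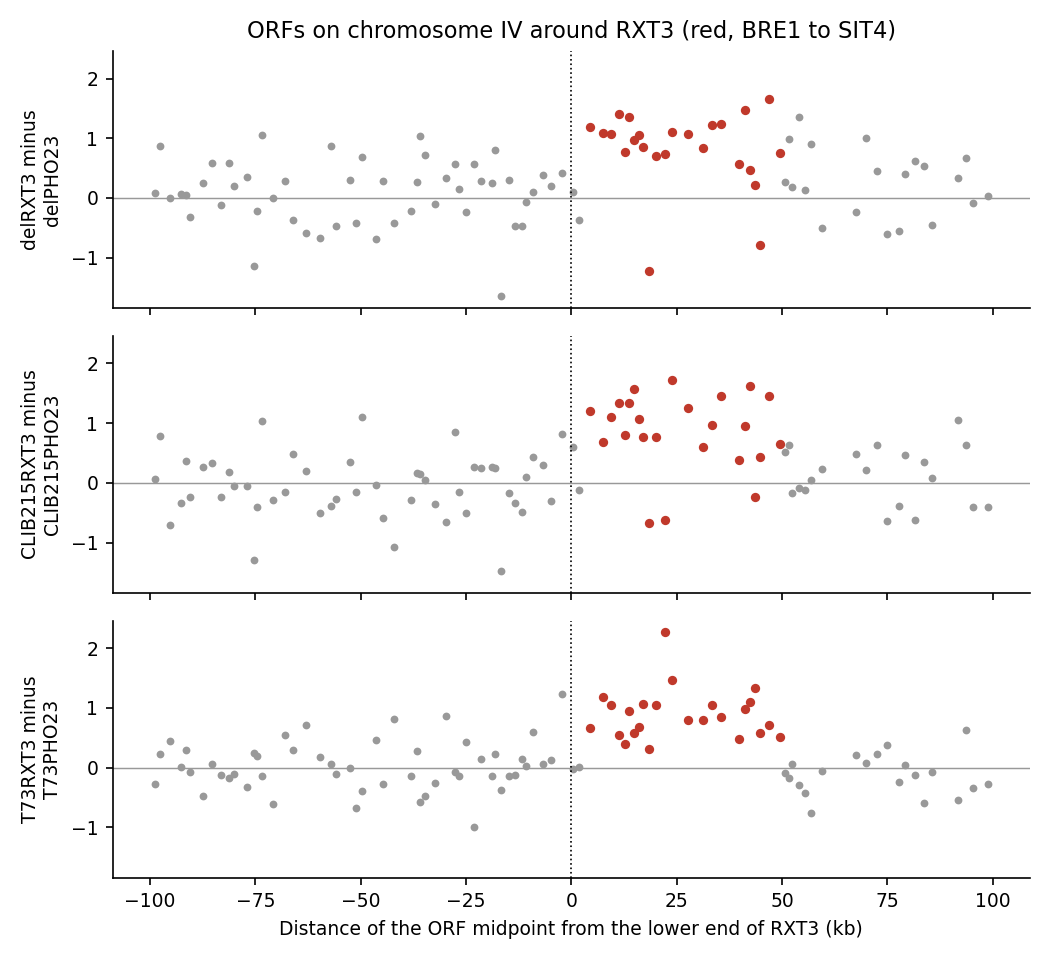
Differences of single ORFs on chromosome IV (y axis, log units) against the distance of their midpoint from the lower-coordinate end of RXT3 (x axis, kb, dotted line at RXT3), for the deletions, the CLIB215 alleles and the T73 alleles. The 24 red ORFs from BRE1 to SIT4 have a median of 1.01 between the deletions, 0.96 between the CLIB215 columns and 0.82 between the T73 columns.

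Over the whole genome the deletions differed by at least 1 unit at 447 ORFs (9.02% of 4956). Of these, 212 were higher in delRXT3 (4.28%) and 235 were lower (4.74%). The median difference was 0.03, and 90% of the ORFs lay between −0.98 and 0.94. In all, 2598 ORFs were above 0 (52.4%) and 2358 below, which is the background for the counts above and below 0 in each gene list. At 2 units or more, 18 ORFs were higher and 4 were lower. The 18 include CUP1-1 with CUP1-2 and RSC30 with YHR054C, pairs with identical values that are each 1 measurement. The delPHO23 column was the more variable, with an SD over ORFs of 0.42 against 0.32 for delRXT3. With columns assigned by the genotype field instead of the titles, the difference is the delRXT3 column minus the column titled T73RXT3. On that reading 60 ORFs were higher and 83 lower, and 54 of the 447 kept their direction past 1 unit while 64 had the opposite sign. Gene lists of known pathways held 67 of the 212 higher ORFs and 92 of the 235 lower ones (31.6% and 39.1%), against 26.5% of all complete ORFs. The lists were chosen with earlier results of these data known, so these shares are a description only.

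**Figure D2:**
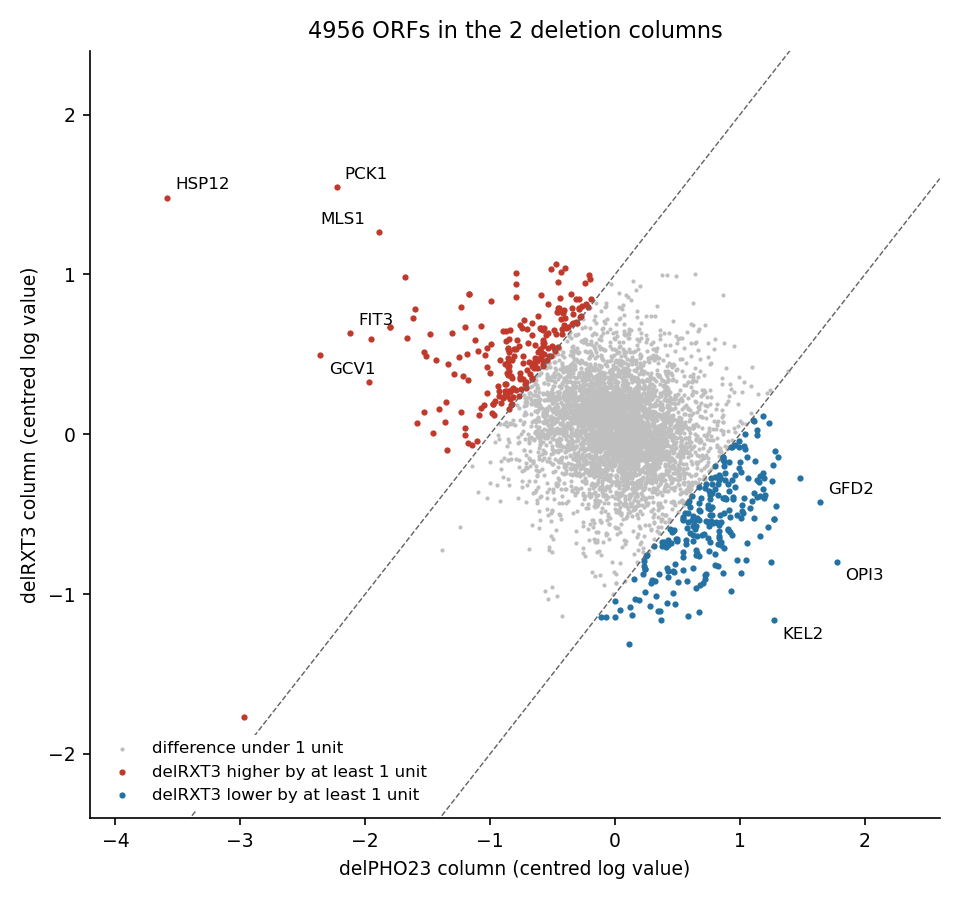
Centred log values of 4956 ORFs in the delRXT3 column (y axis) against the delPHO23 column (x axis); dashed lines mark a difference of 1 unit, red points (212) are higher and blue points (235) lower in delRXT3. HSP12, PCK1 and MLS1 lie farthest to the upper left and OPI3 lies far to the right.

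HSP12, which codes for a small membrane-stabilising heat shock protein, showed the largest difference. Its values were 1.48, 0.37 and 1.24 in the RXT3 columns and −3.59, 0.61 and −3.34 in the PHO23 columns. The delPHO23 and CLIB215PHO23 columns were thus low and the other 4 were high, and the deletions differed by 5.07, or 33.6-fold if the base is 2. Its promoter is shown because HSP12 is a standard target of the stress factors Msn2 and Msn4. The sequence is from the RefSeq genome (build R64), from 250 bases before to 50 bases after the coding start, 5′ to 3′ on the coding strand. It lies at chrVI:107006-107305 on the plus strand, and capitals mark the 2 matches to the stress response element CCCCT, at −232 and −190 from the start.
HSP12: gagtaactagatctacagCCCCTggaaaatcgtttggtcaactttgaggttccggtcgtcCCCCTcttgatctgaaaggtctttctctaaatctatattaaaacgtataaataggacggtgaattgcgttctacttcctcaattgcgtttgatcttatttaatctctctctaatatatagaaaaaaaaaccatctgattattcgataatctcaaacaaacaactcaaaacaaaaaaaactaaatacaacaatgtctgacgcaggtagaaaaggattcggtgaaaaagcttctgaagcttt
The element was present in 22.3% of all 4858 promoters of this length, searched on both strands. It was found in 24.8% of promoters of the ORFs higher by at least 1 unit and in 17.7% of those lower.

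Genes of gluconeogenesis and the glyoxylate cycle, the routes that build sugar from smaller carbon compounds, were mostly higher in delRXT3. Of 11 members, all complete, 9 were above 0, 5 were higher by at least 1 unit and none was lower by as much. PCK1 (phosphoenolpyruvate carboxykinase, the gatekeeper of gluconeogenesis) stood at 1.55, 0.59 and 1.23 in the RXT3 columns and at −2.23, 1.62 and −2.43 in the PHO23 columns. The difference was 3.78, and the T73PHO23 column was the highest of the 6. MLS1 (malate synthase) had 1.26, 0.46 and 0.99 against −1.89, 1.56 and −1.90, a difference of 3.15. FBP1 (fructose bisphosphatase), ICL1 (isocitrate lyase) and IDP2 (cytosolic isocitrate dehydrogenase) were higher by 2.67, 2.38 and 1.20. A further 3 members lay under the threshold, MDH2 at 0.81, SFC1 at 0.77 and FBP26 at 0.67. PYC2 and PYC1, the pyruvate carboxylases, differed by 0.07 and −0.13, with both signs turned by the genotype field. VID24, which takes part in degrading gluconeogenic enzymes when glucose returns, was the lowest member at −0.99. In every one of the called members both delPHO23 and CLIB215PHO23 were below 0 and T73PHO23 was above 0.

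**Figure D3:**
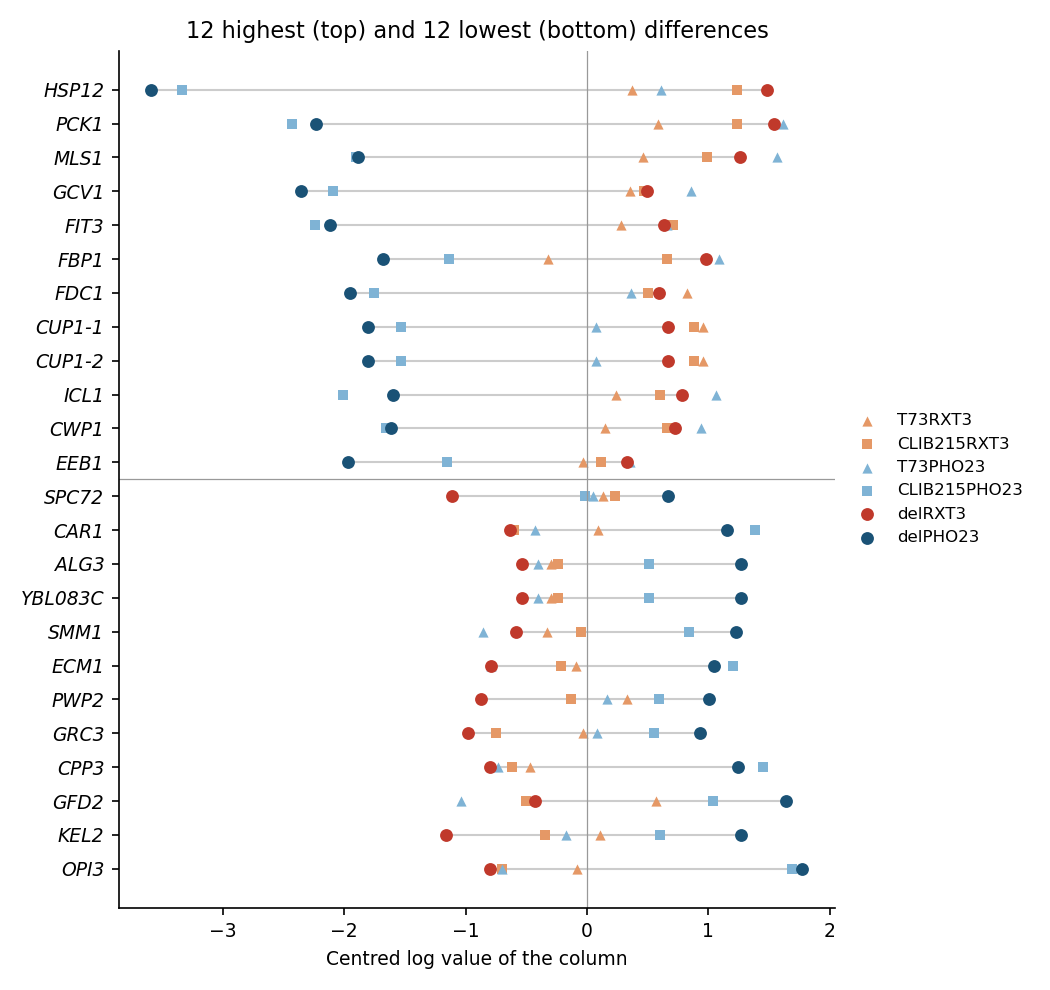
Centred log values (x axis) in the 6 columns for the 12 ORFs with the highest and the 12 with the lowest difference; circles are deletions, triangles T73 alleles, squares CLIB215 alleles, and the grey line joins the deletion columns. CLIB215PHO23 lies near delPHO23 in most rows of the upper panel (HSP12, −3.34 and −3.59), and T73PHO23 does not (0.61).

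Genes for the use of ethanol and acetate were spread to both sides of 0. Of 20 complete members, 10 were above 0 and 10 below, with 3 past 1 unit in each direction and a median of 0.22. The carnitine shuttle, which carries acetyl groups between compartments, was split. YAT1, an outer mitochondrial carnitine acetyltransferase, read 0.63, −0.42 and 0.20 in the RXT3 columns and −1.31, 0.71 and 0.12 in the PHO23 columns, a difference of 1.94. The delPHO23 column was the lowest and T73PHO23 the highest. CAT2, the carnitine acetyltransferase of peroxisomes and mitochondria, read −0.52, 0.06 and −0.63 against 1.11, −0.06 and 1.23, a difference of −1.64, and the carrier gene CRC1 was lower by 1.21 (−1.21). ADH2 (ethanol oxidation) and JEN1 (lactate uptake) were higher by 1.34 and 1.32, while ACS1 (acetyl-CoA synthetase) was at −1.45. In the related list of peroxisomal fatty acid oxidation 17 of 22 complete members were above 0. POX1 (acyl-CoA oxidase), SPS19, PEX7 and ECI1 were higher by 1.75, 1.37, 1.25 and 1.24, and PEX11 (peroxisome division) was at −1.40. ADH2, CRC1, SPS19 and ECI1 had the opposite sign by the genotype field.

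The glycine cleavage complex, which feeds the one-carbon pool, had all 3 of its specific subunits in the higher set. GCV1 stood at 0.50, 0.36 and 0.47 in the RXT3 columns and at −2.36, 0.86 and −2.09 in the PHO23 columns, a difference of 2.85. GCV2 and GCV3 were higher by 1.90 and 1.24. Again delPHO23 and CLIB215PHO23 were the low columns for all 3. The rest of the serine and one-carbon list was mixed, with a median of 0.10 over 20 complete members, and DFR1 (dihydrofolate reductase) was at −1.33. Genes for making NAD were mostly higher, 12 of 15 complete members above 0 with a median of 0.58. BNA1, an enzyme of the kynurenine route from tryptophan to NAD, read 0.60, 0.92 and 0.40 against −1.66, −0.24 and −0.97. All 3 RXT3 columns lay above all 3 PHO23 columns for BNA1, and the difference was 2.26. By the genotype field it was −0.32, and the median of the NAD genes was 0.066. BNA5 and BNA6 of the same route were higher by 2.00 and 1.40, and TNA1, the nicotinic acid permease, by 1.12 (−0.44 by the genotype field).

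Metal genes were higher in a few members only. FIT3, a cell wall protein that retains siderophore-bound iron, read 0.63, 0.28 and 0.71 in the RXT3 columns and −2.12, 0.66 and −2.24 in the PHO23 columns, a difference of 2.75. FIT2 was higher by 1.55 and COT1 by 1.26, but the median of the 21 complete members of the iron regulon was 0.06. The metallothionein genes CUP1-1 and CUP1-2 were higher by 2.47, but at −0.29 by the genotype field. Their values are identical in all columns, so the pair is 1 measurement of a repeated locus, and RSC30 and YHR054C of the same repeat are likewise identical at 2.04. CUP2, the activator of CUP1, was at −1.28. Outside these lists FDC1 (a decarboxylase of phenylacrylic acids), CWP1 (a cell wall mannoprotein) and EEB1 (an ethyl ester synthase) were among the 12 highest, at 2.54, 2.34 and 2.30, and FDC1 was at −0.23 by the genotype field.

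Stress genes driven by Msn2 and Msn4 lay above 0 in 30 of 42 complete members, with a median of 0.33 (−0.19 by the genotype field). Besides HSP12, 3 members were higher by at least 1 unit: DDR2 at 2.11, GPX1 at 1.78 and HOR7 at 1.17. None was lower by 1 unit. Heat shock chaperones had a median of −0.15, with 9 of 26 above 0 and none past 1 unit in either direction. Storage carbohydrate genes were split, the glycogen synthases GSY1 and GSY2 and the trehalase NTH2 at 1.11, 1.07 and 1.04, the glycogenin GLG2 and the phosphoglucomutase PGM1 at −1.39 and −1.42. By the genotype field GSY1 and GSY2 had the opposite sign, as did GPB1 below. Ras and protein kinase A genes, which set the level of the stress response, were split too. CYR1 (adenylate cyclase), GPB2 and the receptor GPR1 were higher by 1.12, 1.12 and 1.01, whereas GPB1 and RAS1 were at −1.16 and −1.62.

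Mitochondrial genes were shifted by less. The median was 0.35 for 42 genes of the respiratory chain and ATP synthase, of which 35 were above 0, and 0.27 for 76 mitochondrial ribosomal proteins, of which 51 were above 0. COX9, a subunit of cytochrome c oxidase, was the only respiratory gene higher by 1 unit, at 1.35, and it lies in the stretch beside RXT3. NDE2, an external NADH dehydrogenase, stood at −0.83, 0.01 and −0.95 in the RXT3 columns and at 0.82, 0.39 and 0.53 in the PHO23 columns. It was the only respiratory gene lower by 1 unit, at −1.65, and its RXT3 columns all lay below its PHO23 columns, which held for 6.63% of annotated ORFs. PET123 and MRP20 of the mitochondrial ribosome were higher by 1.12 and 1.11, and MRP20 was at −0.044 by the genotype field.

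Among the lower genes, those for building ribosomes formed the largest group of the 52 lists. For the assembly and export of the 60S subunit 75 of 77 complete members were below 0 and 27 were lower by at least 1 unit, with a median of −0.75. For the small subunit processome and 40S assembly the counts were 66 of 74 and 23, with a median of −0.73. No member of either list was higher by 1 unit. The list median of the 60S genes was −0.22, 0.15 and −0.26 in the RXT3 columns and 0.58, −0.18 and 0.60 in the PHO23 columns, and delPHO23 was the highest of the 6 columns for 38 of the 77, against 19.0% of all ORFs. GRC3, a kinase of ribosomal RNA processing, read −0.98, −0.03 and −0.75 against 0.93, 0.09 and 0.55, a difference of −1.91. ECM1 (60S export), RSA4 and NMD3 (60S assembly and export) were at −1.84, −1.73 and −1.57. FAF1, ROK1 and UTP9, which act in 40S maturation, were at −1.75, −1.52 and −1.496. SYO1 and TSR1 of these lists lie in the stretch beside RXT3, at −1.23 and 0.74. FAF1 and TSR1 had the opposite sign by the genotype field.

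PWP2, a core protein of the small subunit processome, stood at −0.87, 0.33 and −0.13 in the RXT3 columns and at 1.01, 0.17 and 0.60 in the PHO23 columns. The deletion columns were its extremes, and they differed by −1.88. Its promoter is shown because it holds both elements typical of ribosome biogenesis genes, PAC (GATGAG) and RRPE (AAAATTT). It lies at chrIII:223179-223478 on the minus strand (RefSeq, build R64), written 5′ to 3′ on the coding strand. Capitals mark PAC at −144, RRPE on either strand at −166 and in overlapping matches at −154 and −153, and CATGTG read on the reverse strand at −190.
PWP2: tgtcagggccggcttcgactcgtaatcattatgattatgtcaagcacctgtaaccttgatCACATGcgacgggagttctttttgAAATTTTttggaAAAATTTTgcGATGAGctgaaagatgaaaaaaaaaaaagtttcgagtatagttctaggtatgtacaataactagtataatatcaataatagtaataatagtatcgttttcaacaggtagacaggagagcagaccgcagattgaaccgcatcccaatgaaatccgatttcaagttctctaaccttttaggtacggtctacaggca
PAC was found in 20.05% of all promoters, in 46.8% of those of the ORFs lower by at least 1 unit (108 of 231) and in 11.2% of those higher (23 of 206). The shares for RRPE were 24.7%, 42.9% and 13.1%. Both elements together occurred in 8.73% of all promoters, 31.6% of the lower set and 1.46% of the higher set. The ORFs with both had a median difference of −0.38 and those without both 0.06. Of the 60S genes 83.1% had both and of the small subunit genes 87.8%, so the shares in the lower set and the counts of these lists describe overlapping genes.

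Ribosomal proteins themselves were shifted in the same direction by less. Of the 81 cytosolic large-subunit genes 76 were below 0 (median −0.30), and of the 57 small-subunit genes 53 (median −0.31), and none passed 1 unit in either direction. By the genotype field these medians were 0.055 and 0.069. RPS29B, at 0.71, is 1 of the 4 small-subunit genes above 0 and lies in the stretch beside RXT3. Genes of RNA polymerases I and III had a median of −0.31, with 21 of 36 below 0, against 2358 of all 4956 ORFs. RPA135 and TFC4 were at −1.09 and −1.07. Genes for tRNA modification had a median of −0.41, with 27 of 37 below 0 and 6 lower by at least 1 unit. SMM1 (dihydrouridine synthase) was the lowest at −1.81, followed by TRM11, TRM9 and TRM44 at −1.53, −1.43 and −1.39. Translation factors had a median of −0.03 over 37 genes, and none passed 1 unit.

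**Figure D4:**
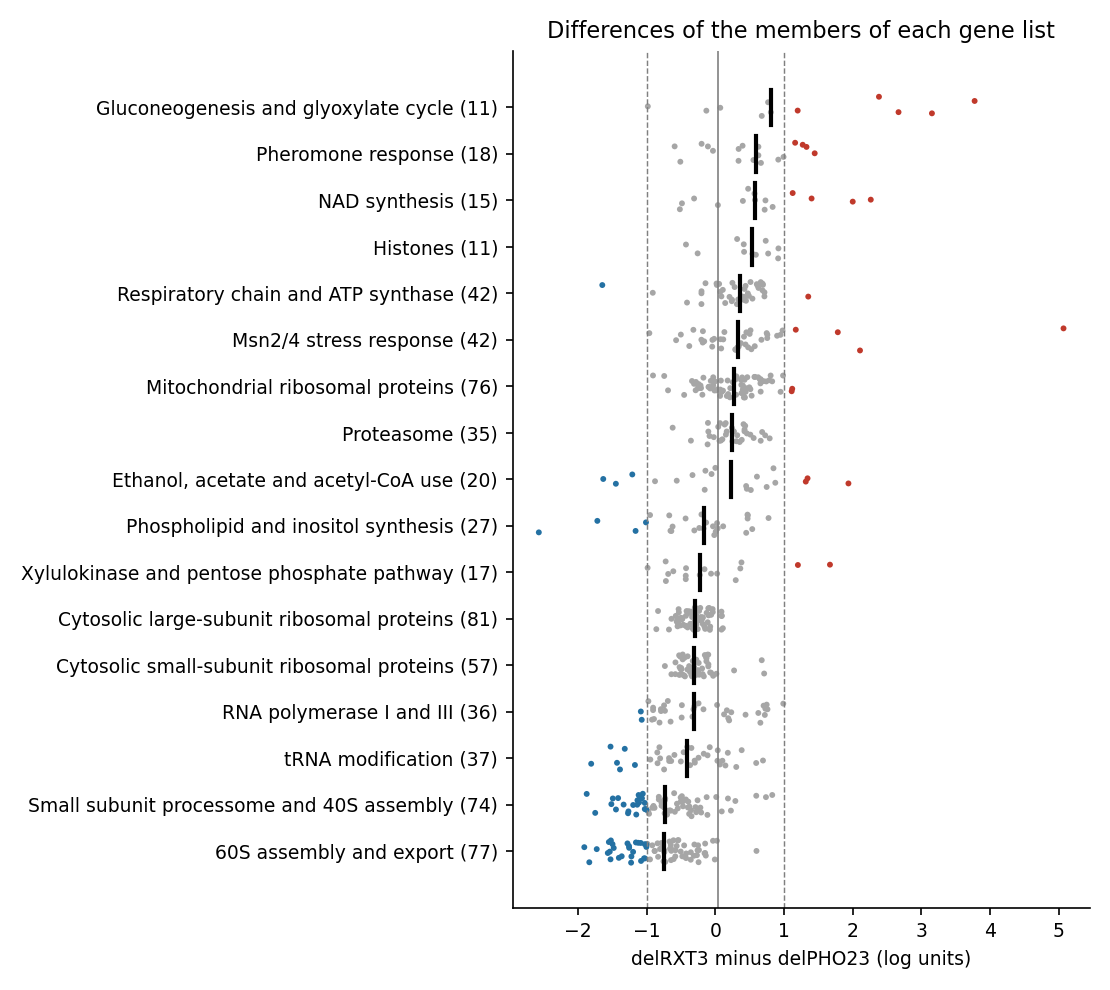
Differences between the deletions (x axis, log units) of the complete members of 17 gene lists (number in brackets); each point is an ORF, black bars are list medians, dashed lines mark 1 unit and the grey line is the median of all ORFs (0.03). The ribosome assembly lists have medians of −0.73 and −0.75, and gluconeogenesis has 0.81.

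OPI3, which codes for the methyltransferase of the last steps of phosphatidylcholine synthesis, had the lowest difference of all ORFs. It stood at −0.80, −0.08 and −0.70 in the RXT3 columns and at 1.78, −0.70 and 1.69 in the PHO23 columns. The delPHO23 and CLIB215PHO23 columns were high and the other 4 were below 0, and the deletions differed by −2.57 (5.95-fold if the base is 2). CHO2, the methyltransferase of the step before, read −0.28, 0.27 and −0.20 against 0.88, −0.02 and 0.37, a difference of −1.16. CPT1 (cholinephosphotransferase) and INM1 (inositol monophosphatase) were at −1.72 and −1.01. SLC1 of the same pathway lies in the stretch beside RXT3, at 0.47 (−0.15 by the genotype field). The list of phospholipid and inositol synthesis as a whole had a median of −0.17, with 17 of 27 complete members below 0, against 2358 of all 4956 ORFs. OPI3, CHO2, CPT1 and INM1 were its 4 members past 1 unit. The promoter of OPI3 is shown for its matches to CATGTG, the core of the element bound by the phospholipid regulators Ino2 and Ino4. It lies at chrX:572886-573185 on the minus strand (RefSeq, build R64). Capitals mark CATGTG at −212 and, on the reverse strand, at −148, and reverse-strand matches to CCCCT at −98 and to GATGAG at 34 after the start.
OPI3: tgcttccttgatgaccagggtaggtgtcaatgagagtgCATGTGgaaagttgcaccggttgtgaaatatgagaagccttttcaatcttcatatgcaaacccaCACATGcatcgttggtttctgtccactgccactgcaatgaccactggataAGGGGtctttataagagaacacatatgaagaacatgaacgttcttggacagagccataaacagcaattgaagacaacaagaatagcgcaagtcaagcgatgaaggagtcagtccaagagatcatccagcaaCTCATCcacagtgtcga
CATGTG occurred in 6.32% of all promoters, in 11 of the 27 phospholipid genes (40.7%), in 9.96% of the lower set and in 4.85% of the higher set. Within the list the median difference was −0.31 with the element and −0.01 without it. Ergosterol genes had a median of −0.04, with ERG13 at −1.47 and ERG26 at 1.08 (−0.022 by the genotype field).

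Among the other genes with the lowest differences, KEL2 (a kelch-repeat protein of cell polarity and mitotic exit) read −1.16, 0.11 and −0.35 in the RXT3 columns and 1.27, −0.17 and 0.60 in the PHO23 columns, a difference of −2.44. GFD2 read −0.43, 0.57 and −0.50 against 1.64, −1.04 and 1.04, a difference of −2.07, and its T73 columns were ordered the opposite way. CPP3 was at −2.05. ALG3, a mannosyltransferase of glycan assembly, and the overlapping YBL083C had identical values in all columns and a difference of −1.80, so they count as 1 measurement. CAR1 (arginase) was also at −1.80. Nitrogen catabolite genes had a median of −0.03 over 24 members. Besides CAR1, the activator gene GLN3, UGA2 (use of GABA) and DAL5 (allantoate permease) were at −1.48, −1.15 and −1.04, while DAL7 was at 1.33, and GLN3 had the opposite sign by the genotype field. In amino acid synthesis ARG1, LYS20 and HIS5 were at −1.60, −1.40 and −1.14, and 38 of 60 members were below 0. In sulfur metabolism MET2, MET5 and SAM3 were higher by 1.61, 1.10 and 1.01 and SAM2 (S-adenosylmethionine synthetase) was at −1.46. In nucleotide synthesis ADE2 was at 1.56, URA1 at −1.29 and IMD4 at −1.55.

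For the pathway by which xylulose enters metabolism, 6 of 17 complete genes were above 0 and 11 below, with a median of −0.23. The minor isoforms were higher, NQM1 (a transaldolase paralog) by 1.67 and GND2 (a phosphogluconate dehydrogenase) by 1.20, and by the genotype field they were at −0.66 and −0.42. No member was lower by 1 unit. XKS1 (xylulokinase) differed by 0.30 and the main isoforms TKL1 (transketolase) and GND1 by −0.72 and −0.73, and RPE1 (ribulose phosphate epimerase) by −0.99, values that were looked up for this pathway after they had been seen. Of 21 hexose transporter genes and sensors 5 had a value in all columns, with a median of −0.04 and none past 1 unit. Glycolysis and fermentation genes had a median of 0.06 over 28 members, with ADH5 at 1.17 (−0.19 by the genotype field) and HXK1 (hexokinase) at −1.002.

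The subunits of Rpd3L other than the edited ones differed in both directions. Of the 9 complete genes 4 were above 0 and 5 below. The deacetylase gene RPD3 was at 0.66, the scaffold SIN3 at −0.13 and SAP30 at −0.02. The DNA-binding recruiters ASH1 and UME6 were at 0.75 and −0.96, and UME1, DEP1 and CTI6 at 0.61, 0.51 and −0.14. By the genotype field UME6, SIN3 and CTI6 had the opposite sign, UME6 at 0.73. RXT2 read −0.82, 0.28 and −0.19 in the RXT3 columns and 0.23, −0.0029 and −0.17 in the PHO23 columns, a difference of −1.06, and was the only subunit past 1 unit. The Ume6 site core GGCGGC was found in 4.34% of all promoters, 7.36% of the lower set and 4.85% of the higher set. RCO1, specific to the small Rpd3S complex, read 0.65, −0.27 and −0.49 against −0.89, 0.35 and 0.20, a difference of 1.54, while EAF3 of the same complex was at −0.09. Among other chromatin enzymes HDA2 (Hda1 complex), SPT7 (SAGA) and HST4 (a sirtuin) were higher by 1.69, 1.17 and 1.09, and ADA2 (SAGA) was at −1.14. The sign of HST4 turned by the genotype field.

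Histone genes were higher in delRXT3 in 9 of 11 cases, with a median of 0.54, and none passed 1 unit. The paired H3 and H4 genes HHT1 and HHF1 were at 0.91 and 0.92, and HTB1 and HTA1 at 0.77 and 0.73. HHF1 read 0.29, −0.13 and 0.14 in the RXT3 columns and −0.62, 0.10 and −0.45 in the PHO23 columns. The delRXT3 column was the highest of the 6 for 9 of the 11 genes and delPHO23 the lowest for 7, against 16.8% and 21.2% of all 4956 ORFs. HTA2, HTB2, HTZ1, HHT2 and HHF2 lay between 0.32 and 0.59. The linker histone gene HHO1 and the centromeric CSE4 were at −0.26 and −0.43, and at 0.80 and 0.12 by the genotype field. Proteasome genes were above 0 in 28 of 35 cases with a median of 0.25, none past 1 unit.

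Genes of the mating response lay mostly above 0. Of 18 complete members 13 were above 0, with a median of 0.59 (−0.0023 by the genotype field). PRM4 (a pheromone-induced protein) read 0.60, −0.10 and 0.72 against −0.85, 0.06 and −1.21, a difference of 1.45. STE4 (the G protein beta subunit), SST2 (its desensitising regulator) and FUS3 (the mating kinase) were higher by 1.33, 1.27 and 1.16. For SST2 the T73 columns differed in the same direction by 1.70. Of the 10 a-specific genes MFA1 (a-factor) and AXL1 (its protease) were higher by 1.17 and 1.14, MFA2 by 0.95, and AGA2 (agglutinin) was at −1.06. SST2, MFA1 and MFA2 had the opposite sign by the genotype field. Meiotic genes mostly lacked values, and 12 of 50 were complete, with a median of 0.35 and SPS19 and SPO22 at 1.37 and 1.21.

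The 4 allele columns served as a reference for the deletion columns. For 302 of the 447 ORFs past 1 unit (67.6%) the delPHO23 value lay farther than the delRXT3 value from the median of the 4 allele columns. That held for 156 of the 212 higher and 146 of the 235 lower ORFs. The same share over all 4956 ORFs is not given here. The delPHO23 column was also the more variable over all ORFs (SD 0.42 against 0.32), so the count is a description only. Few ORFs had a deletion column at least 1 unit beyond all 4 allele columns, whatever their difference between the deletions. The delRXT3 column was that far above them for 0 of 4956 ORFs and below them for 7 (0.141%), including ROM1, SPC72, PRP3, CPT1, ATE1 and ATG22. The delPHO23 column was above them for 2 (0.0404%), YHR032W-A and LCP5, and below them for 10 (0.202%), among them YNL097W-A, ACA1, YOR289W, YPC1, FIG4 and TCD2. With each column divided by its SD both delPHO23 counts were 0. At a gap of 0.5 unit delRXT3 lay above all 4 for 60 ORFs (1.21%) and below for 89 (1.8%), and delPHO23 above for 104 (2.1%) and below for 141 (2.85%). SPC72, a spindle pole body component, read −1.11, 0.13 and 0.23 in the RXT3 columns and 0.67, 0.05 and −0.02 in the PHO23 columns. The deletions thus lay on either side of the alleles at a difference of −1.78.

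The same contrast between loci can be made with the natural alleles, in columns that the deletions do not share. Between CLIB215RXT3 and CLIB215PHO23, 444 ORFs differed by at least 1 unit (8.96%), 219 of them higher in the RXT3 column (4.42%) and 225 lower (4.54%). Between T73RXT3 and T73PHO23, 151 differed by as much (3.05%), 101 higher (2.04%) and 50 lower (1.01%). Of the 447 ORFs past 1 unit between the deletions, 370 had the same sign between the CLIB215 columns and 143 (32.0%) also passed 1 unit there. Between the T73 columns 177 had the same sign and 13 (2.91%) passed 1 unit. No same-sign share over all 4956 ORFs is given here, and the 447 were selected by size, so these counts are descriptions only. Over the 4956 ORFs the Pearson correlation of the deletion differences was 0.50 with the CLIB215 differences and −0.11 with the T73 differences, a description across ORFs that are centred over the same 6 columns and are not independent. For 78 of the 447 ORFs CLIB215PHO23 was the only allele column within 1 unit of delPHO23, and for 5 T73PHO23 was. The shares of such ORFs among all 4956 are not given here. Of the 48 gene lists with a median, 32 had a CLIB215 median nearer to that of the deletions and 16 a T73 median nearer to it. The CLIB215 median had the sign of the deletions for 44 lists and the T73 median for 21. Gluconeogenesis had a median of 0.81 between the deletions, 0.97 between the CLIB215 columns and −0.82 between the T73 columns, and 60S assembly had −0.75, −0.90 and 0.34. Histones were at 0.54, 0.24 and −0.14, and the pheromone response at 0.59, 0.44 and 0.06. The a-specific genes were nearer between the T73 columns, at 0.35, 0.90 and 0.42.

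**Figure D5:**
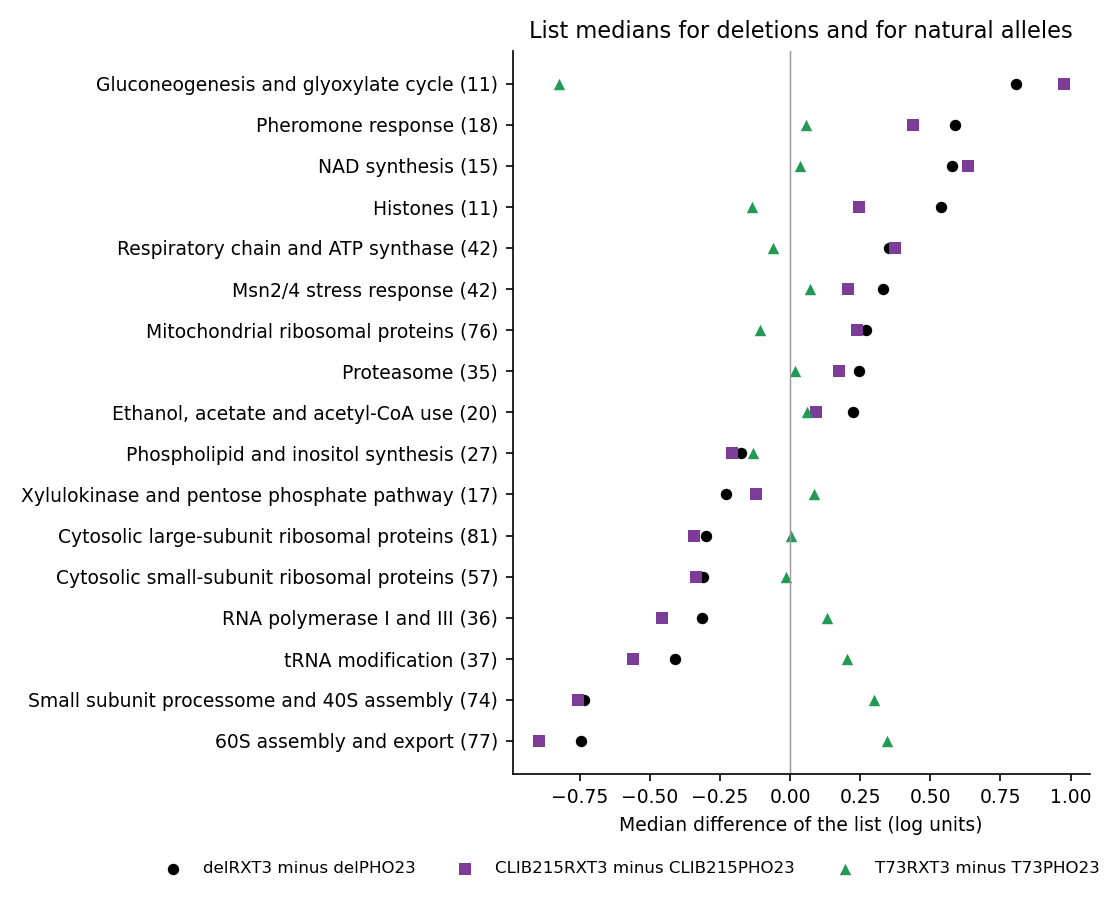
Median difference (x axis, log units) of 17 gene lists between the RXT3 and PHO23 columns, for the deletions (circles), the CLIB215 alleles (squares) and the T73 alleles (triangles). The CLIB215 median of gluconeogenesis lies near that of the deletions (0.97 and 0.81), and the T73 medians of the ribosome assembly lists have the opposite sign (0.30 and 0.34).

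Some differences between the deletions went further in their own direction than those between the alleles. For 102 of the 4956 ORFs, 48 higher and 54 lower, the deletion difference passed 1 unit and exceeded both allele differences in its direction by at least 1 unit. The rule takes account of sign, so YNL097W-A counts with 1.20 between the deletions although its allele differences were larger, at −5.72 and −5.68. Both allele differences had the opposite sign for 48 of the 102 ORFs, and the CLIB215 difference had the same sign for 45. EEB1 is the only one at which an allele difference also passed 1 unit in the same direction, with 1.27 between the CLIB215 columns. RCO1 and YAT1, described above, are 2 of them, with allele differences of −0.61 and 0.09 at most. CPT1 is another, with −1.14, −0.08 and −0.03 in the RXT3 columns and 0.59, 0.02 and 0.00 in the PHO23 columns. Its difference was −1.72 between the deletions, −0.03 between the CLIB215 columns and −0.10 between the T73 columns. DAL7 was at 1.33 between the deletions and at −0.38 and −0.54 between the alleles. The choice of these ORFs by their size fixes the direction, and the rule favours small or opposite allele differences. An allele difference past 1 unit in the same direction needs a deletion difference of at least 2 units here. Only 18 higher and 4 lower ORFs reached that. The number of ORFs and the counts of signs are therefore descriptions only.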

How the data were processed

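Messenger RNA of 18 libraries in 6 groups of 3 was measured, and 6 libraries belong to the deletion strains. Poly-dT bead selection of fragmented RNA and primers with a barcode and a molecular identifier were used, per the labels' protocols. The submitters' processing notes name Bowtie and R64. For counting, pooling, normalization and centring the method is not given in the sources used here. The authors deposited centred log values, read here as log2 values, in 1 table with 1 column per group. Of its 6701 rows, 51 name no ORF and were left out.

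Differences were computed with Python (pandas 2.3.3, numpy 2.4.6) over ORFs with 6 values, and counted past 1 unit. Of the complete ORFs, 4858 matched the RefSeq annotation of R64. Members and the 52 gene lists were chosen with earlier results of these data known. Named genes were drawn from the edited genes with 3 neighbours on each side and from the 12 highest and 12 lowest differences. Further sources were up to 4 members per list and direction past 1 unit and 6 per class of columns standing apart. All members of lists of at most 12 were also eligible. Not every gene of these sets is mentioned. Others were chosen after their values were seen. The calculations were checked on simulated data.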

Additional observations from a re-analysis of the deposited data

How the results depend on the processing

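No paired analysis was possible because each strain has 1 pooled column that carries no replicate number, and for the same reason no replicate could be left out and no count model applied. Depth limits cannot be stated without counts. With the genotype field in place of the titles, 60 ORFs were higher and 83 lower by 1 unit, 143 in all. The list medians then became 0.29 for gluconeogenesis, 0.033 for the respiratory chain, 0.066 for NAD synthesis, 0.29 for histones, 0.11 for the proteasome, 0.057 for mitochondrial ribosomal proteins, −0.14 for the small subunit processome, −0.33 for 60S assembly and −0.24 for tRNA modification. They reversed for stress genes (−0.19), the pheromone response (−0.0023) and the cytosolic large-subunit and small-subunit ribosomal proteins (0.055 and 0.069). Of 175 genes checked, 132 were past 1 unit and 29 of these reversed under this naming. Of the 43 under 1 unit, 16 changed sign, MFA2, UME6, HHO1, CSE4, TSR1, SLC1, PYC1, PYC2, SIN3, CTI6, FIG4, TCD2, STE2, RPL31A, VAM6 and RXT3. Those that had been higher came to −0.47 for ACA1, −0.096 for ADH2, −0.19 for ADH5, −0.053 for AHK1, −0.32 for BNA1, −0.29 for CUP1-1 and CUP1-2, −0.050 for ECI1, −0.022 for ERG26, −0.23 for FDC1, −0.42 for GND2, −0.19 for GSY1, −0.017 for GSY2, −0.046 for HST4, −0.83 for MFA1, −0.044 for MRP20, −0.66 for NQM1, −0.078 for PEX19, −0.49 for RAD59, −0.42 for SPS19, −0.14 for SST2, −0.44 for TNA1, −0.010 for YET3 and −0.65 for YNL097W-A. Those that had been lower came to 0.023 for CRC1, 0.066 for FAF1, 0.022 for GLN3, 0.037 for GPB1 and 0.14 for LCP5. A threshold of 1.5 units left 46 higher and 47 lower ORFs, 93 in all. Read as natural logs with a 2-fold threshold, 542 were higher and 496 lower, 1038 in all. With a gap of 0.5 unit, delRXT3 lay above all allele columns for 60 ORFs and below for 89, and delPHO23 above for 104 and below for 141. Dividing each column by its SD left 0 and 0 for delPHO23 at a gap of 1 unit. Restricting to values in both deletion columns, centring the columns, and 2 alternatives chosen after seeing the data (identical ORFs counted once, 434 ORFs past 1 unit without those from BRE1 to SIT4) kept each count of ORFs past 1 unit within 1.5 times its value and the sign of the 13 list medians checked.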

Other observations

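A value was missing from the delRXT3 column alone for 50 ORFs and from the delPHO23 column alone for 36. The latter include PHO23 itself and BNA4, DAL3, DUR3, MET14, SUL2 and STL1, chosen after their values were seen. Since such ORFs enter no difference, the kynurenine, allantoin and sulfur pathways were described without these members.

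Within 25 kb of a chromosome end 105 annotated ORFs were complete, and their median difference was 0.15. Of these, 11 were higher in delRXT3 by at least 1 unit (10.5%) and 7 were lower (6.67%), against 4.10% and 4.71% of the 4753 other ORFs. MAL31, a maltose permease gene, read 0.67, −0.10 and 0.23 in the RXT3 columns and −1.20, 0.50 and −0.97 in the PHO23 columns, a difference of 1.88. The CLIB215 columns were ordered like the deletions and the T73 columns the opposite way. COS3 was higher by 1.45, and FDC1, BNA6, JEN1 and SAM3, described above as higher, also lie in these regions. The 7 lower ORFs were ERG13, DAL5 and HXK1, described above as lower, and EFM1, IMA2, ADF1 and KRR1.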
